A study of Mus musculus with 3 samples.

Results

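Imprinted genes are genes transcribed mainly from the copy inherited from one parent. The 34 described here were chosen by name, and all 34 were found in the RefSeq annotation of the mouse assembly GRCm38.p6, among 49943 genes on the chromosomes that held data. Of the 34, 30 are protein-coding and 4 (H19, Meg3, Airn and Kcnq1ot1) are long noncoding RNAs. They fall into 18 imprinted clusters or single loci on 9 chromosomes. The study assayed open chromatin by ATAC-seq, a method that marks accessible DNA with a transposase, in cells of the apical part of first molars of C57BL/6 mice. The 1 mutant library (Gli1-CreER;Arid1a fl/fl) and the 2 control libraries (Arid1a fl/fl) came from mice at postnatal day 7.5, after tamoxifen at postnatal day 3.5, with 5000 cells per library. The floxed Arid1a alleles were shared by both genotypes. Gli1-CreER acts in cells that express Gli1, a target gene of hedgehog signalling, so Arid1a need not be lost in all cells of the molar. Its loss was not measured in the values used here.

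The values analysed were pooled over the libraries: 13500 open chromatin windows of 201 bp, of which 27 were assigned to imprinted genes, and the sites of the Plagl1 motif found in them. A window carried no value per library, so mutant and control libraries were not compared, read depth per window is not known, and replicate errors cannot be given. The 95% intervals beside shares are exact (Clopper-Pearson) and reflect the number counted, not the spread between animals; 9 of the 27 windows belonged to 2 members each, so the members are not independent of each other. Nothing in the data separates the maternal from the paternal allele, so whether a member was imprinted in these cells was not measured. The sources used here do not say how the windows were chosen, and a gene without a window may still be open. Of markers of the cell types that a molar digest could hold, 6 of 10 dental mesenchyme markers had a window at a gene end (within 1 kb), as did 2 of 5 odontoblast, 1 of 7 dental epithelium, 1 of 5 immune, 2 of 5 endothelial and 2 of 5 glial and neuronal markers, against 46.6% of all protein-coding genes. Inside or within 10 kb it was 8 of 10 dental mesenchyme, 2 of 5 odontoblast, 1 of 7 dental epithelium, 4 of 5 immune, 2 of 5 endothelial and 2 of 5 glial and neuronal markers, against 59.5% of all protein-coding genes. At 10 kb the dental mesenchyme and the immune list thus had the same share, 80%. Of the odontoblast genes, Col1a1 and Alpl had a window at an end, and Dspp, Dmp1 and Phex had none inside or within 10 kb.

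Imprinted genes often lie in clusters in which a control region, methylated in the germline of one parent, sets the expressed allele of several neighbours. At some loci, such as Igf2r and Kcnq1, a long noncoding RNA transcribed from the control region of the unmethylated allele silences the neighbours. Many imprinted genes act on fetal growth, on metabolism or in the brain. Plagl1, also called Zac1, is itself an imprinted gene. It is expressed from the paternal allele and encodes a zinc finger transcription factor that in mouse embryos has been placed in a network of co-expressed imprinted genes.

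The deposited search looked for 1 motif, that of Plagl1, and the site sequences below show what it matched near imprinted genes. A site is a sequence match and not a measurement of binding. Its score is HOMER's log-odds score as deposited, whose log base is not stated; over the whole list scores ran from 5.51 to 7.74. Positions are in mm10. Sites are 10 bp long and are written 5′ to 3′ along the motif strand, as deposited or as the reverse complement of the deposited bases for sites on the minus strand. Capitals mark positions 4 to 7, the G-rich core, counted from 1 at the 5′ end. The best site of each gene with a site is shown, ordered by score, with neighbours that share a window on 1 line and the Impact site not shown.
Trappc9: aatGAGGccc
Peg12: cggGGGGccc
Kcnq1ot1 and Kcnq1: aatGAGGccg
Nnat and Blcap: tatGGGGcgc
Igf2r and Airn: cgtGGGGctc
Peg3 and Usp29: caaGGGGcaa
Commd1: aagGAGGgcc
Inpp5f: cggGAGGcct
Copg2: ttgGGGGcca
Sgce and Peg10: agaGAGGccg
Zim1: cctGAGGctc
The first of these scored 7.52 and the last 5.56. The sites of Trappc9 and Kcnq1ot1 differ by 1 substitution, C10G, counted from the 5′ end with the Trappc9 base first.

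Of the 34 imprinted genes, 12 (35.3%, 95% interval 19.7 to 53.5) had a window with its midpoint within 1 kb of either end of the gene, against 24.6% of all genes. All genes include many noncoding genes and pseudogenes, so the protein-coding genes are the closer comparison for most members: 10 of the 30 protein-coding members (33.3%, 17.3 to 52.8) had such a window, against 46.6% of all protein-coding genes. The background share lies inside the interval of the members. For 11 of the 12 genes the promoter table gives a strand, and in all 11 the window lay at the transcription start; Trappc9 has no entry in that table. The 12 genes are Blcap, Copg2, Zim1, Ube3a, Ndn, Peg12, Inpp5f, Kcnq1ot1, Grb10, Trappc9, Igf2r and Airn.

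A further 10 members had a window inside the gene or within 10 kb of it, which brought the total to 22 of 34 (64.7%, 46.5 to 80.3), against 36.9% of all genes. Among protein-coding genes it was 20 of 30 members (66.7%, 47.2 to 82.7), against 59.5% of all. Longer genes can hold more windows, and the protein-coding members were longer, with a median of 38.9 kb against 17.2 kb for all protein-coding genes. The part of gene length in this count was not tested.

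Several imprinted genes had their nearest window a short way from the gene end rather than at it. The nearest window lay over 1 kb and up to 5 kb from an end in 8 of the 30 protein-coding members (26.7%), against 7.37% of all protein-coding genes, and in 8 of all 34 members (23.5%), against 6.68% of all genes. These were Impact, Nnat, Peg10, Sgce, Peg3, Usp29, Commd1 and Mest. The band was chosen after the values were seen, and the genes are not independent, since Peg10 and Sgce share 1 window and Peg3 and Usp29 share another. The member just inside the 1 kb limit was Peg12, at 373 bp, and those just outside it were Impact, at 1088 bp, and Nnat, at 1135 bp.

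**Figure D1:**
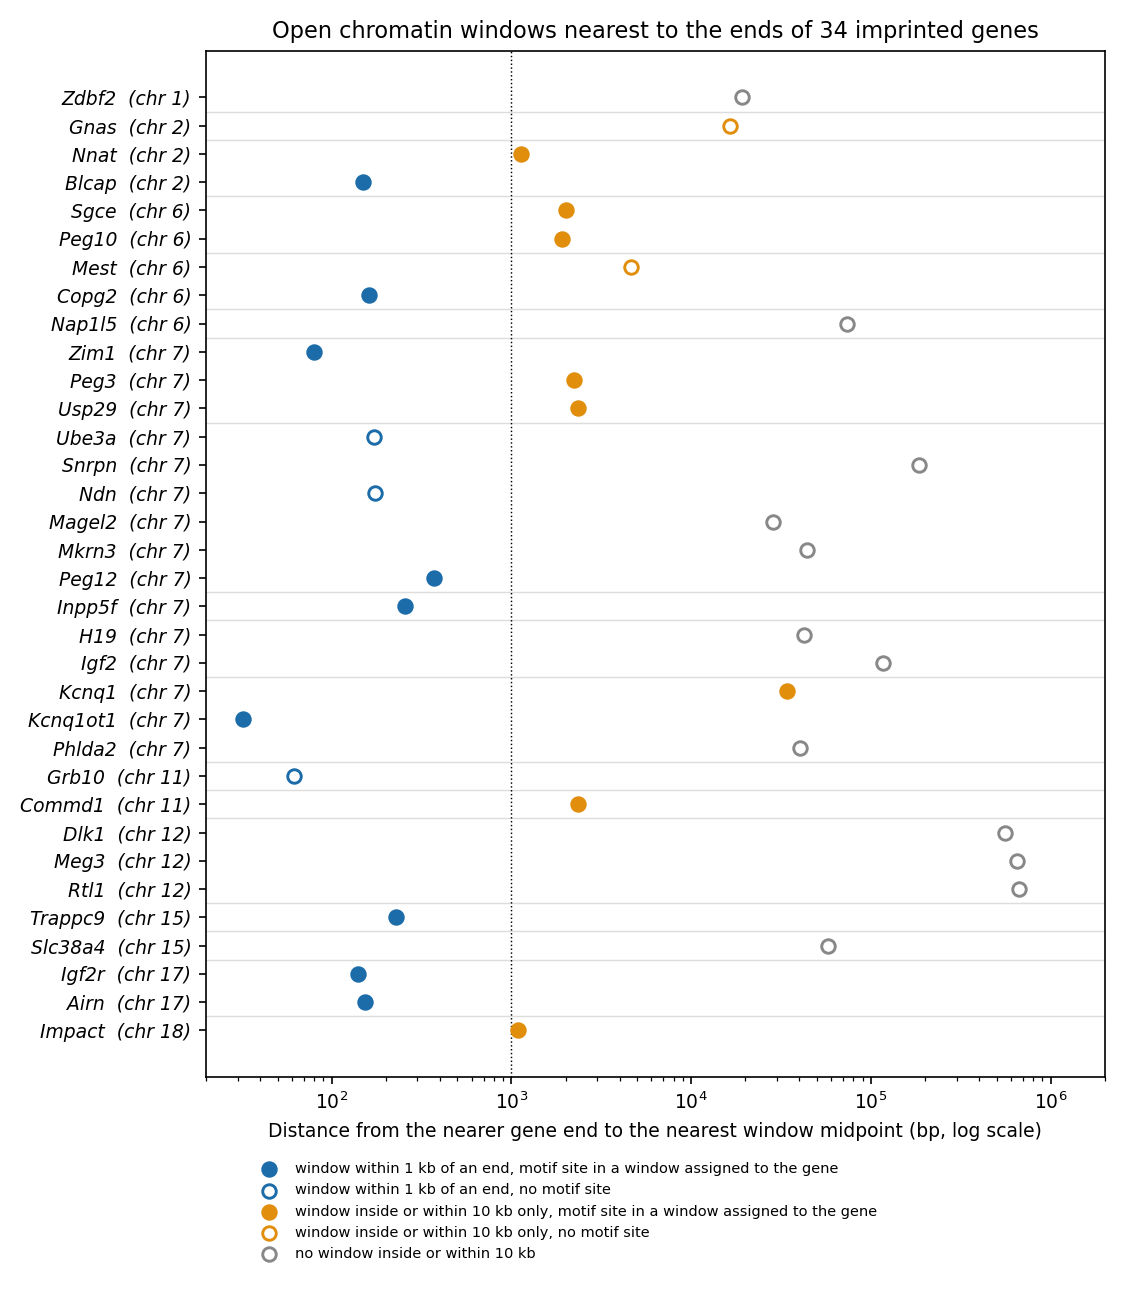
Distance in bp, on a log scale, from the nearer end of each of the 34 imprinted genes to the midpoint of the nearest open chromatin window, with genes grouped by cluster. Filled points are genes with a Plagl1 motif site in an assigned window, and colour marks where the windows lie. The dotted line marks 1 kb. 12 genes lie left of it, from Kcnq1ot1 at 32 bp to Peg12 at 373 bp, and the 3 genes of the Dlk1 and Meg3 cluster lie farthest to the right.

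**Figure D2:**
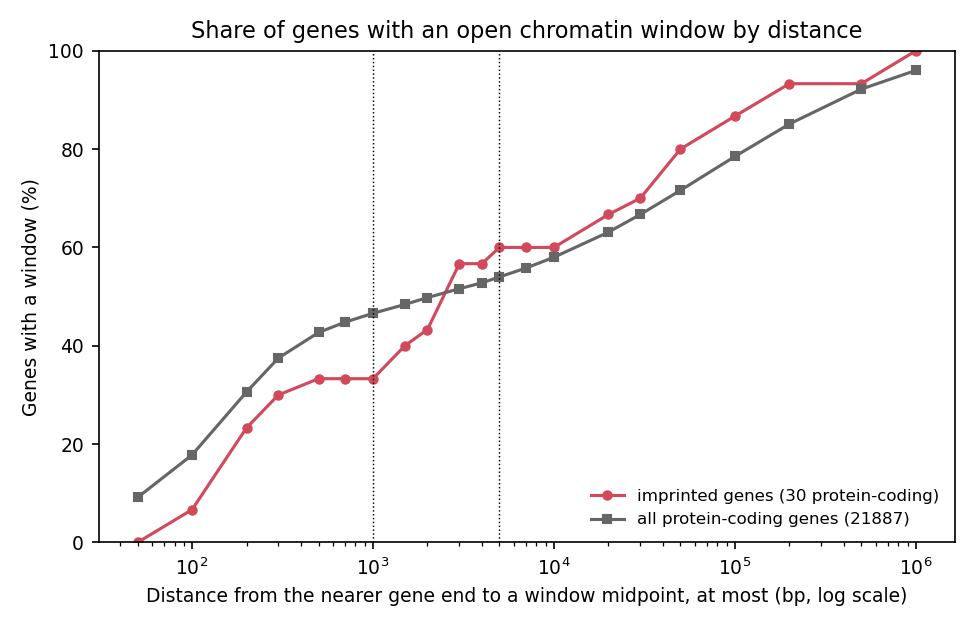
Share of protein-coding genes (%) with a window at most a given distance (bp, log scale) from a gene end, for the 30 imprinted protein-coding genes and for all protein-coding genes. The imprinted genes stand at 33.3% at 1 kb and 60% at 5 kb, against 46.6% and 54% of all protein-coding genes; dotted lines mark both distances.

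Some of these windows inside genes lay at internal start sites. Mest, a member of the alpha/beta hydrolase fold family expressed from the paternal allele, had 1 window, at chr6:30738025-30738225, which lay 4619 bp from the gene end but 72 bp from the nearest of 3 start sites in the promoter table. That window held no motif site. Gnas, which encodes the stimulatory G protein alpha subunit and, from other promoters, imprinted transcripts of either parental origin, had 1 window, at chr2:174330146-174330346. It lay 45926 bp downstream of the gene start and 240 bp from the most downstream of 4 start sites, and also held no site. Commd1, a regulator of copper transport and NF-kappaB, had a window 2339 bp from its end and 84 bp from a listed start. Counting any listed start site in place of the gene ends, 14 of the 27 members with an entry (51.9%) had a window within 1 kb, against 37.4% of the 27025 genes with an entry. This count was added after the data were seen. Both sets include noncoding genes, and the share for protein-coding genes alone was not computed. The 27 members had 44 entries and the 27025 genes had 32851, so members had more chances to lie near a window.

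On proximal chromosome 7, all 3 genes of the Peg3 cluster had an assigned window, and both windows of the cluster held a site. Peg3 is a paternally expressed zinc finger gene, Usp29 a ubiquitin-specific protease gene that starts beside it on the opposite strand, and Zim1 a maternally expressed zinc finger gene. The window at chr7:6728119-6728319 lay inside Peg3, 2200 bp downstream of its start site and 2340 bp from the end of Usp29. It had a GC content of 50.2% and 0.5 CpG per 100 steps between neighbouring bases, among the least CpG-rich of the member windows, and its site scored 6.09. The window of Zim1, at chr7:6696360-6696560, lay 80 bp from the gene end and held a site of score 5.56.

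In the Snrpn and Ube3a cluster of central chromosome 7, the region of Prader-Willi and Angelman syndromes in human, 3 of 6 members had a window, all at a gene end. Ube3a, a ubiquitin ligase gene expressed from the maternal allele in neurons, had a window 173 bp from its start with no site. Ndn encodes necdin, a growth suppressor of the MAGE family, and had a window 175 bp from its start, also with no site. Peg12, a relative of the GSK3-binding Frat genes, had a window at chr7:62464037-62464237, with a GC content of 79.1% and 13 CpG per 100 steps. Its single site scored 6.54, above 86.8% of all sites of the list. The MAGE gene Magel2 lay 28.5 kb and the ring finger gene Mkrn3 44 kb from the nearest window. Snrpn, which encodes the spliceosomal protein SmN, lay 185 kb from one although the gene is 468 kb long in this annotation.

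On distal chromosome 7, 2 of the 3 genes of the Kcnq1 domain had a window, and neither gene of the neighbouring Igf2 domain did. Kcnq1ot1 is the paternally expressed noncoding RNA that runs antisense inside the potassium channel gene Kcnq1 and silences genes of the domain. The window nearest to its start, at chr7:143296415-143296615, lay 32 bp from it, the smallest distance to a gene end of any member, and held a site of score 6.37. A second window inside Kcnq1, at chr7:143154012-143154212, held 3 sites that share bases. They form a run of 17 bp at chr7:143154085-143154101, written along the plus strand with bases that belong to more than 1 site in capitals.
Kcnq1 run: gtgcccCACGGGGGCCc
The scores of these sites were 6.27, 6.03 and 5.51, the last among the lowest of the list, with 0.0348% of sites below it. Phlda2, a maternally expressed growth-restraining gene of the placenta, lay 40.4 kb from the nearest window.

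Igf2 is the paternally expressed insulin-like growth factor, and H19 its maternally expressed noncoding neighbour. The nearest window lay 42.2 kb from H19 and 117 kb from Igf2. Inpp5f, an inositol phosphatase gene on the same chromosome with a paternally expressed variant in brain, had a window at chr7:128611337-128611537, 256 bp from the gene end. It held 3 sites that do not overlap, with scores of 5.92, 5.70 and 5.53.

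On chromosome 6, Peg10 and Sgce share 1 window. Peg10 is a paternally expressed gene derived from a retrotransposon, and Sgce encodes epsilon-sarcoglycan. The window, at chr6:4749111-4749311, lay inside Peg10, 1905 bp from its end and 2007 bp from that of Sgce, and its site scored 5.58. Copg2, a coatomer subunit gene next to Mest, had a window without a site 161 bp from its end, which also lay 327 bp from an end of Tsga13, and another deep in the gene, at chr6:30804676-30804876, with a site of score 5.60. The window of Mest was also within 10 kb of Copg2. Nap1l5, a paternally expressed nucleosome assembly protein gene, lay 73.6 kb from the nearest window.

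On chromosome 2, Nnat, a paternally expressed gene for a small endoplasmic reticulum protein, lies within Blcap, and both had the same 2 windows. One lay inside Nnat, 1312 bp downstream of its start, with a GC content of 62.7% and 3.5 CpG per 100 steps, and held no site. The other, at chr2:157566411-157566611, lay 150 bp upstream of the start of Blcap, had a GC content of 50.2% and held a site of score 6.26, one of 2 sites with this sequence in the list. The 250 bases before the start of Blcap, from RefSeq (GRCm38.p6, chr2:157566362-157566611, minus strand), are shown because the window covers 201 of the 300 bases of this promoter entry and the site lies in them. Capitals mark the site, in the reverse direction of the motif.
Blcap: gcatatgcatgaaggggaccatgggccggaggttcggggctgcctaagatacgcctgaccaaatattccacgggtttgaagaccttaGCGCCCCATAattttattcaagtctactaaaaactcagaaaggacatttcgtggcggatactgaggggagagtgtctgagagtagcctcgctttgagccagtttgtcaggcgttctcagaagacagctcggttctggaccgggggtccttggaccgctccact

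On chromosome 17, Igf2r and Airn overlap in opposite directions, and each had a window at its own start. Igf2r, the maternally expressed receptor that clears insulin-like growth factor 2, had one at chr17:12769466-12769666, 140 bp from its start, with a GC content of 72.6% and a site of score 6.12. Airn is the paternally expressed antisense RNA that silences Igf2r. Its window, at chr17:12741365-12741565, lay 154 bp from its start and had a GC content of 58.7%, with no site. Each of these windows also lies inside the other gene, so each counts for both.

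On chromosome 11, Grb10, an adaptor that restrains insulin and insulin-like growth factor signalling, had a window 62 bp from its end with a GC content of 81.6%, the highest of the member windows. A second one lay 11503 bp inside the gene, 2046 bp from the nearest listed start. Neither held a site. Commd1 had 3 windows, of which one lay 32 bp from an end of Zrsr1, a paternally expressed gene nested in Commd1, and another 121 bp from an end of Cct4. The one with a site, at chr11:22982100-22982300, scored 5.95.

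The highest score of any site near the 34 genes was found on chromosome 15, inside Trappc9. Trappc9 encodes a subunit of a vesicle trafficking complex and is expressed mainly from the maternal allele in brain. Of its 3 windows, one lay 227 bp from an end, one 6436 bp outside the gene, and the other, at chr15:72810038-72810238, lay 220518 bp from the nearer end. That window was 186 bp from an end of Peg13, a paternally expressed noncoding RNA nested in Trappc9. Its 2 sites share bases, and scored 7.52 and 6.73, above 99.4% and 90.8% of all sites. They make a run of 14 bp at chr15:72810135-72810148 on the plus strand, with the shared bases in capitals.
Trappc9 run: aatgAGGCCCcaca
Slc38a4, a paternally expressed amino acid transporter gene on the same chromosome, lay 57.9 kb from the nearest window.

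The 3 members of the Dlk1 and Meg3 cluster of chromosome 12 had no window, and lay farther from one than the members of any other cluster. Dlk1, a paternally expressed membrane ligand related to Notch ligands, lay 558 kb from the nearest window, the maternally expressed noncoding RNA Meg3 647 kb and the paternally expressed, retrotransposon-derived Rtl1 671 kb. In all, 5 of 34 members (14.7%) had no window inside or within 100 kb, namely these 3, Igf2 and Snrpn, against 33.6% of all genes and, for 4 of the 30 protein-coding members (13.3%), against 21.3% of all protein-coding genes. Zdbf2, a paternally expressed zinc finger gene on chromosome 1, lay 19.1 kb from a window.

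Impact, a paternally expressed regulator of the translation kinase Gcn2 on chromosome 18, had 2 windows inside the gene. One lay 1088 bp from an end, with a GC content of 55.2%, and held 2 overlapping sites of score 5.72. The other lay 19003 bp from an end and held no site.

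The members can also be counted by the parental allele known to be expressed in mouse. Of the 20 members expressed from the paternal allele, 11 had an assigned window, 4 of them at an end (within 1 kb), and 9 had a motif site. Of the 6 expressed from the maternal allele, 3 had a window, 2 of them at an end, and all 3 had a site. All 5 members with maternal expression in some tissues only (Ube3a, Blcap, Copg2, Commd1 and Trappc9) had a window, 4 of them at an end and 4 with a site. Gnas and Grb10, whose expressed allele depends on the transcript, had windows without a site, and Inpp5f had a window with sites. Of all protein-coding genes, 59.5% had a window inside or within 10 kb, 46.6% had one at an end and 25.1% had a site within 10 kb. Of all genes it was 36.9%, 24.6% and 15.1%. Ube3a, Copg2, Commd1 and Trappc9 are 82.1, 149, 84.8 and 472 kb long and Blcap 10 kb, and the part of gene length was not tested. Clusters share windows, and these groups were not tested against each other.

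Over all 27 windows of the imprinted genes, 13 held at least 1 motif site (48.1%, 95% interval 28.7 to 68.1), against 33.1% of the 13013 windows assigned to any gene by the same rule and 32.9% of all windows. The background lies inside the interval. They held 19 sites, 70.4 per 100 windows, against 42.7 per 100 windows assigned to any gene. When overlapping sites were merged, 15 remained, 55.6 per 100 windows, against 40.1 per 100 over all windows. The windows with 2 or more sites were those of Kcnq1, Inpp5f, Trappc9 and Impact, 4 of 27 (14.8%), against 7.82% of windows assigned to any gene. In Kcnq1, Trappc9 and Impact these sites overlap in a single run, and only those of Inpp5f lie apart. The share of all windows with 2 or more separate sites was not counted. By gene, 17 of the 22 members with a window had a site in one (77.3%), against 41% of all genes with a window; for protein-coding genes it was 15 of 20 (75%), against 42.1%. Within 1 kb of an end, 6 of the 34 members had a window with a site (17.6%, 6.76 to 34.5), against 8.19% of all genes. Among protein-coding genes it was 5 of 30 (16.7%, 5.64 to 34.7), against 15.6%. Inside or within 10 kb it was 17 of 34 (50%, 32.4 to 67.6), against 15.1% of all genes. For protein-coding genes it was 15 of 30 (50%, 31.3 to 68.7), against 25.1%. The background lies inside the intervals at 1 kb and below those at 10 kb. These intervals treat the members as independent, which they are not. Members that share a window count its site more than once, which the count by window does not. The protein-coding members were also longer, with a median of 38.9 kb against 17.2 kb for all protein-coding genes. Longer genes can hold more windows and so more sites. The part of gene length in these counts by gene was not tested.

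**Figure D3:**
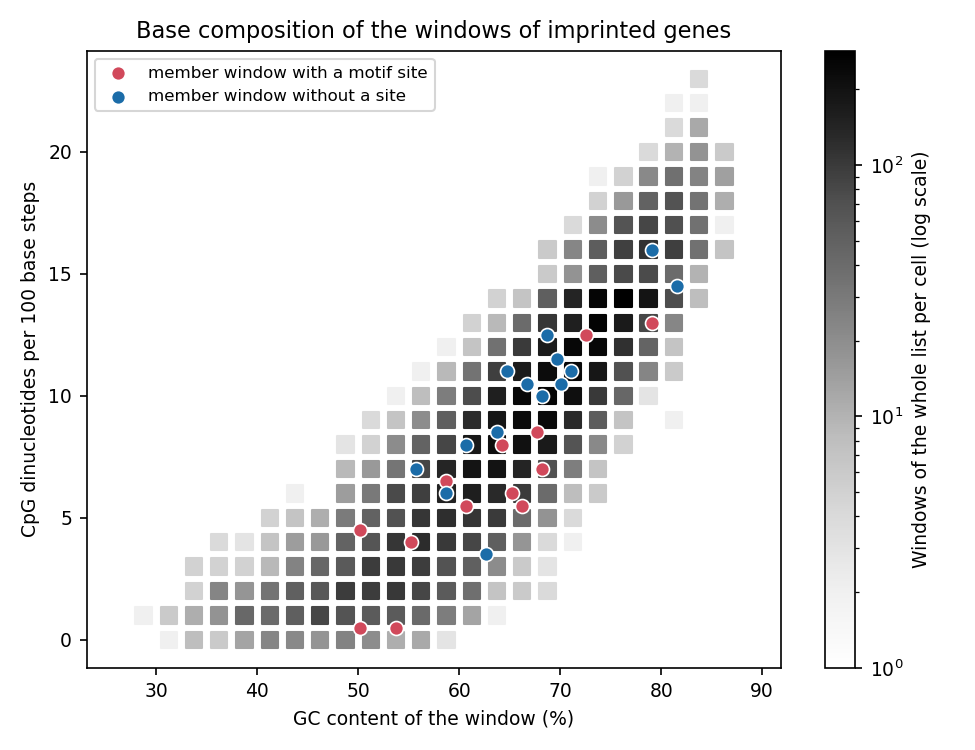
GC content (%) and CpG dinucleotides per 100 base steps of the 27 member windows, as points, over the number of windows of the whole list in each grid cell (grey, log scale). The member windows lie between 50.2% and 81.6% GC and between 0.5 and 16 CpG per 100 steps, inside the wider range of the list, and sites occur in windows of both high and low CpG content.

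The base composition of the member windows lay near the middle of the list. Their GC content ran from 50.2% to 81.6% with a median of 65.2%, against 27.4% to 88.1% with a median of 66.7% over all windows, and their CpG content from 0.5 to 16 with a median of 8 per 100 steps, against 0 to 23 with a median of 9. The median score of their sites was 5.95, against 5.94 for all sites. Of the 19, 9 scored at least 6, against 2481 of all 5753 sites. Base A stood at position 5 in 47.4% of their sites and in 44.8% of all sites, where G is the alternative. On the plus strand lay 13 of the 19 sites, against 2946 of all 5753, a difference that was not tested.

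**Figure D4:**
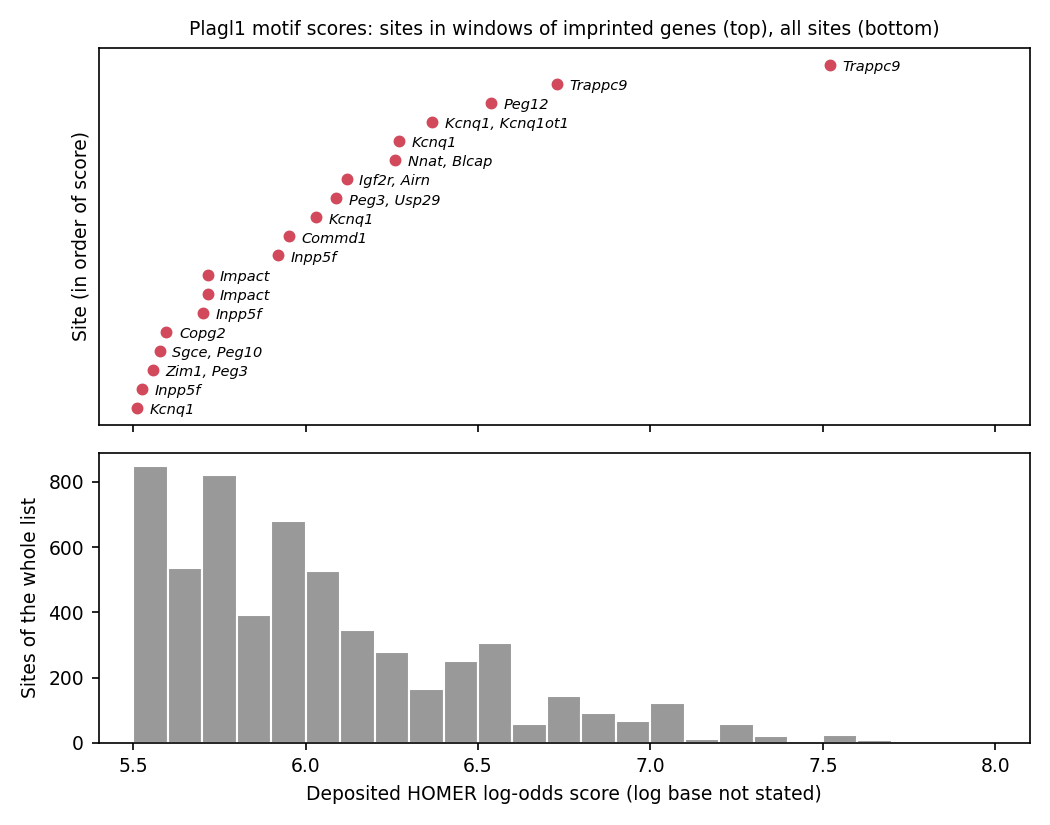
Deposited HOMER score of the 19 Plagl1 motif sites in windows of imprinted genes, each named by the genes its window belongs to (top), and the number of sites of the whole list by score (bottom). The scores run from 5.51 to 7.52, and the Trappc9 sites stand highest.

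Plagl1 itself, on chromosome 10, had 1 window, with a GC content of 69.2% and no site in it. The 250 bases before its start (RefSeq, GRCm38.p6, chr10:13090582-13090831, plus strand) are shown because 2 overlapping sequences of the deposited site list occur in them, 200 and 196 bases before the start, where the window, which begins at 13090738, does not reach. Capitals mark both.
Plagl1: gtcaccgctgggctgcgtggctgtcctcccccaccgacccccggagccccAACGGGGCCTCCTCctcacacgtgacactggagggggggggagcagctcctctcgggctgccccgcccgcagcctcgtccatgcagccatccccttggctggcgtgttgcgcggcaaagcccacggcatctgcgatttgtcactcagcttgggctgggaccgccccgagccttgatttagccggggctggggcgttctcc

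Promoter sequence was searched for the same strings whether or not a window lay there. The promoter table runs from 250 bases before to 50 bases after each listed start and had 44 entries for 27 members. Any of the 642 distinct deposited site sequences, on either strand, occurred in 23 of the 44 (52.3%, 36.7 to 67.5), against 38.9% of all promoters. Entries of Gnas and of Mest overlap, so the share was also counted by gene, with 19 of 27 (70.4%), against 41.7%. Members with several starts have more chances to hold one. The entries of Peg3 and Usp29 overlap too and hold the same 2 site sequences, which count for both genes. The interval treats the entries as independent, which they are not. The entry at the outer start of Mest held 4 site sequences without a window, one of the 4 entries of Igf2 held 2 and another held 1. The hexamer TGCCGC, which when methylated is the sequence bound by ZFP57, a zinc finger protein that maintains imprints, was also searched on both strands. It occurred in 12 of the 44 member promoters (27.3%, 15 to 42.8), against 11.6% of all promoters. By gene it was 11 of 27 (40.7%), against 13.1%. The overlapping entries at both internal starts of Mest held the same 2 hexamers, and the outer start of Zdbf2 held 3. Plagl1, which is not counted among the 44, held 1. Median GC content was 55.8% in the member promoters and 52.7% in all, and the part of GC content in these counts was not tested. The hexamer can share bases with a site, and such overlaps were not removed.

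Further genes known as imprinted in mouse, 50 in a list that holds no member, were counted the same way. Of the 48 found in the annotation, 20 (41.7%) had a window at an end, within 1 kb, and 25 (52.1%) had one inside or within 10 kb. For the 43 protein-coding ones these shares were 44.2% and 55.8%, against 46.6% and 59.5% of all protein-coding genes. The windows of the 34 members held a motif site in 48.1% (28.7 to 68.1), against 7 of the 30 windows of these further genes that no member shared (23.3%, 9.93 to 42.3) and 33.1% of the windows assigned to any gene. Another 3 windows, those of Peg13 and Zrsr1, are shared with members and count only in the 48.1%. The Peg13 window held 2 sites and the Zrsr1 windows held 1. The difference between both lists was not tested. They included Dio3, the thyroid hormone deiodinase gene at the far side of the Dlk1 and Meg3 cluster, with a window 232 bp from its end and no site. Osbpl5, on chromosome 7, had 4 windows and 2 sites, the best of score 5.86. Ins2, Ascl2, Rian, Mirg, Begain and Rasgrf1 had none within 10 kb.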

How the data were processed

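The deposited files used were the window annotation and the motif site list. The submitters' processing notes name mm10 as the genome and, as tools, Bowtie2 2.3.5, MACS2 2.1.1, cutadapt 1.18 and FastQC 0.11.8, besides Picard, bedtools and edgeR, without their roles. HOMER, per the file headers, searched a union list of peaks for the Zac1 (Plagl1) motif in a window around each centre. GC and CpG content are deposited as a fraction, turned here into percent and into CpG per 100 steps. The deposited score of a site is HOMER's log-odds score, whose log base the file does not state. The filter behind the union list, and whether it used a difference between mutant and control, is not given in the sources used.

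Computed here were the distances of window midpoints to genes of RefSeq GRCm38.p6 (the assembly behind mm10), which windows and sites belong to which gene, and string matches in RefSeq promoters. Positions count from 1. The 5753 sites of both files matched in position, and the 1493 that lie inside a promoter entry had the same bases there. A gene's window lies within 1 kb of either end, or inside or within 10 kb. No enrichment test was made: the members and lists were chosen with earlier results of these data known, so counts stand beside those of all genes. Every member is named, with Plagl1 and any other gene with an end within 1 kb of a member window. Clusters and expressed alleles come from general knowledge. Promoter entries were absent for H19, Sgce, Peg10, Rtl1, Kcnq1, Trappc9 and Impact. The distance functions were checked against a direct calculation. Alternatives varied the distances, the score limit and the assignment rule. Python 3.11.15, numpy 2.4.6, pandas 2.3.3, scipy 1.17.1 and matplotlib 3.10.9 were used.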

Additional observations from a re-analysis of the deposited data

How the results depend on the processing

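Of 28 alternative values, 21 stayed within 1.5 times the reported count or inside the interval of the reported share. The number of imprinted genes with a window at an end was 12 at 500 bp as at 1 kb and 15 at 2 kb, but 20 at 5 kb, and 6 when only windows with a motif site counted. Among protein-coding genes, the members stood at 33.3%, 43.3% and 60% at 500 bp, 2 kb and 5 kb. All protein-coding genes stood at 42.7%, 49.8% and 54%. The number with a window inside or within 10 kb, 22, ran from 17 to 23. The share of windows with a site, 48.1%, was 25.9% for sites scoring at least 6 and 7.41% for those scoring at least 6.5. The shares of all windows at these scores were not computed, so the members cannot be set beside them there. The 19 sites became 9 and 3 at these scores, and 8 within 1 kb of a gene end. These changes follow from counting fewer or more windows and sites. No paired analysis was possible because the files hold no values per library, so leaving out a library could not be run either. The read depth behind each window is unknown, and 27 windows limit what shares can show.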
